A study of Mus musculus with 12 samples.

Results

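The 39 genes described here carry out or mark DNA replication and cell division, and were chosen by a list of gene symbols among the 14098 genes of the deposited expression table. They comprise 23 replication genes used in S phase, 4 regulators of the step from G1 into S (E2f1, Ccne1, Ccne2 and Ccnd1) and 12 mitosis genes. All 39 passed the filter on low values, a TPM of 1 or more in 2 or more libraries, which 11194 genes of the table passed. Without the library WT stiff 1, 38 would have passed it, and Cdc6 would not. TPM, a length-corrected share of the transcripts, divides the reads of a gene by its length and scales each library to a total of 1000000, so that levels of different genes can be compared.

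RNA was sequenced from BMDM (macrophages grown in culture from mouse bone marrow) of male and female C57Bl/6 mice of 8 to 10 weeks, which were WT or Camkk2-/- (KO in the group names). All groups shared encapsulation in a collagen and hyaluronic acid hydrogel, a further culture of 48 h and release of the cells by collagenase. The 6 groups of 2 libraries each were WT soft (soft hydrogel), WT soft+IL-4 (soft hydrogel with the cytokine IL-4), WT stiff (hydrogel stiffened by UV light and the photoinitiator Irgacure, beginning 24 h after encapsulation) and the same 3 cultures of Camkk2-/- cells. The stiff hydrogel also held collagen at a higher concentration than the soft one, which the study reports did not affect macrophage phenotype. The study asked how stiffening and IL-4 change macrophages and what Camkk2, a calcium-dependent kinase, has to do with it. Whether marrow of several mice was pooled is not given in the sources used here.

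Some facts about the libraries bear on every value below. Camkk2 went against the labels of 3 libraries: its TPM was 11.7 in the library labelled WT soft 2, 46.6 in the library labelled KO soft 1 and 37.7 in the library labelled KO stiff 1, while it was 23.3 to 44.2 in the other 5 WT libraries and 8.54 to 11.5 in the other 4 KO libraries. Directions drawn between genotypes, and those against soft within a genotype, rest on these labels. WT stiff 1 stood apart in the members described here, and it is given separately from WT stiff 2 throughout. The libraries numbered 1 listed 10.7% to 13.4% of genes at 0 and those numbered 2 listed 5.9% to 7.54%. The depth of the libraries is unknown. The labels call the libraries of a group biological replicates, and with 2 of them an SD rests on 1 difference. Both soft+IL-4 libraries of each genotype carry Soft 1 in their labels. Whether they share an origin with each other or with the library soft 1 is not given.

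As background, a cell that is about to copy its DNA first loads the ring of Mcm2 to Mcm7 onto replication origins with the help of Cdc6 and Cdt1. In S phase, Cdc45 and the GINS complex turn the ring into a moving helicase, primase and polymerases copy the strands, and Pcna, the sliding clamp, holds the polymerases in place. In mitosis, Cdk1 with its cyclins, the Aurora kinases and Plk1 drive the separation of the chromosomes. E2F factors switch on replication genes before S phase, whereas mitosis genes peak later, in G2 and M. Macrophages grown from marrow divide under growth factors and largely leave the cycle as they mature.

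The BMDM carried the RNA of macrophages, with Lyz2 (lysozyme) at 19076 to 51543 TPM and Cd68 at 1813 to 2123 TPM in every library. The markers of other cells that were looked up were far lower. Summed over each list, progenitor markers reached 3.16 to 7.76 TPM, mast cell and basophil markers 0.509 to 2.88 TPM, lymphoid markers 0.657 to 3.38 TPM, fibroblast markers 0.183 to 0.809 TPM and erythroid markers 0.939 to 11.5 TPM. Neutrophil markers summed to 36.9 to 94.9 TPM. In bulk RNA, fewer cells in cycle and less of these transcripts per cell cannot be told apart.

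Replication members were present at modest levels, with one exception. Outside WT stiff 1, the median over the 23 replication members was 6.14 to 8.93 TPM, that over the 12 mitosis members 2.67 to 5.01 TPM. Pcna, the sliding clamp, was far above all other members at a mean of 465 TPM, and Fen1, the nuclease that trims Okazaki fragments, came next among the replication genes at 24 TPM. The lowest members were Cdc6, which loads the helicase, at 0.788 TPM and Ccne2, a cyclin of the G1 to S step, at 1.19 TPM. The annotation holds processed pseudogenes of Pcna, Ccnb1, Ccnb2 and Tyms that are not in the table, so reads of these 4 genes may be divided with their copies and their levels are uncertain.

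In WT stiff 1, nearly all members were at their highest. Of the 39 members, 36 (92.3%) had their highest TPM of all 12 libraries there, while this held for 31.7% of the 11194 genes. Of the 39, 31 (79.5%) were at least 2-fold above the median of the other 11 libraries, against 9.09% of all genes. WT stiff 2, its partner, was highest for 0 of the 39 members and lowest for 2. These are descriptions of 1 library and have no replicate check.

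**Figure D1:**
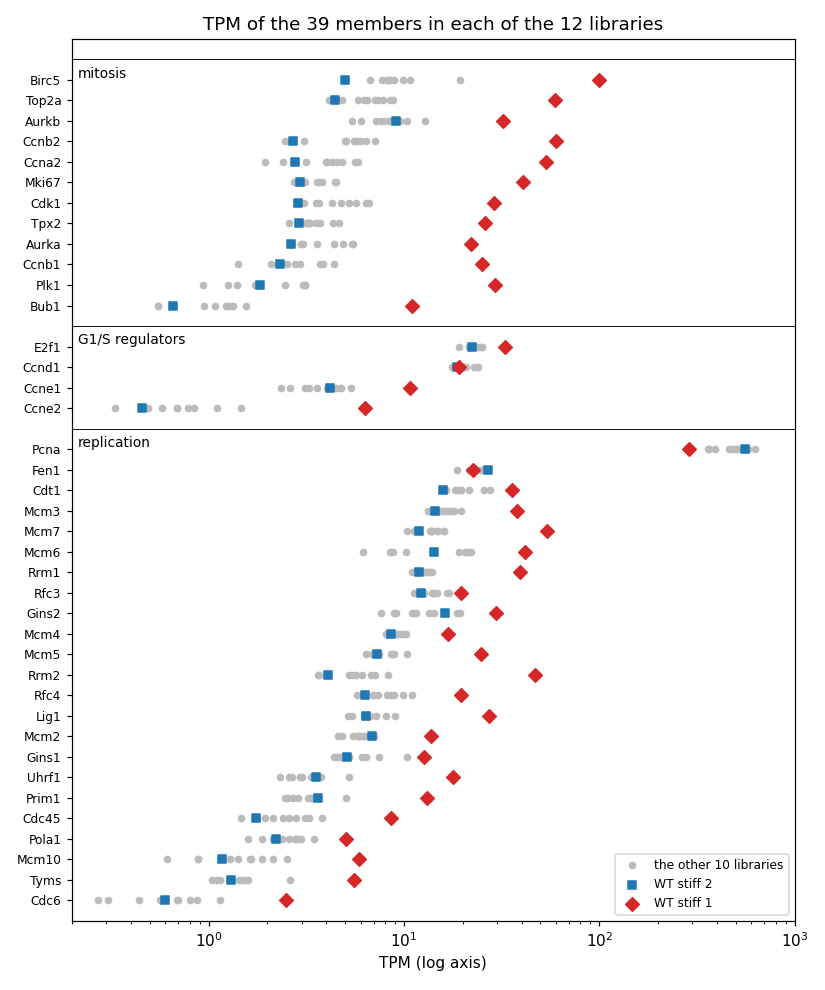
TPM (log axis) of each of the 39 members, ordered by mean level within its class. Red diamonds are WT stiff 1, blue squares WT stiff 2 and grey points the other 10 libraries. All 12 mitosis members lie at their right end in WT stiff 1, and Pcna at its left end.

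In WT stiff 1, the mitosis members stood further above the other libraries than the replication members did. Their median ratio of WT stiff 1 to the median of the other 11 libraries was 10.1, with a range of 3.85 to 16.4, and all 12 were highest there. For the replication members the median ratio was 2.93, with a range of 0.586 to 8.42, and 21 of 23 were highest there. For the 4 G1 to S regulators it was 2.06, and over all genes tested it was 1.06. The ratios of WT stiff 2, computed in the same way, had medians of 0.689 for mitosis, 0.909 for replication and 0.957 over all genes.

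The order of the classes was turned round in WT stiff 1. The median of log2(TPM + 1) was 4.36 for replication and 4.98 for mitosis members there, a difference (replication minus mitosis) of -0.62. In the other 11 libraries that difference was positive and lay between 0.43 and 1.22, with 1.04 in WT stiff 2.

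**Figure D2:**
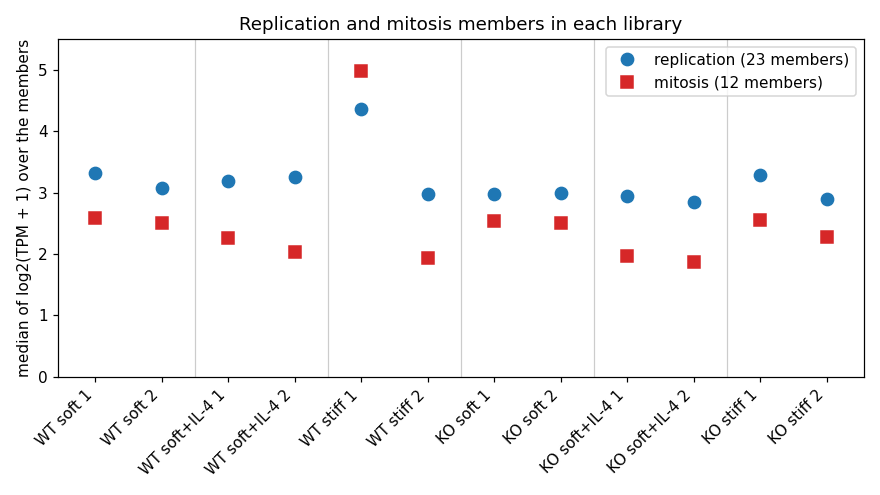
Median of log2(TPM + 1) over the 23 replication members (circles) and the 12 mitosis members (squares) in each of the 12 libraries, with lines between groups. WT stiff 1 is the only library with the mitosis median (4.98) above the replication median (4.36), and the gap is wider in the soft+IL-4 libraries (0.93 to 1.22) than in the soft ones (0.43 to 0.73).

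Among the mitosis members, the 3 with the highest mean TPM were Birc5, Top2a and Aurkb. Birc5 (survivin, a subunit of the chromosomal passenger complex) was at 8.44 and 7.75 TPM in WT soft, 9.92 and 6.71 in WT soft+IL-4, 99.5 in WT stiff 1 and 5 in WT stiff 2, 10.7 and 8.85 in KO soft, 8.15 and 4.97 in KO soft+IL-4, and 19.4 and 8.29 in KO stiff. The library labelled KO stiff 1 came second, far below WT stiff 1, and WT stiff 2 was among the lowest. Top2a, the topoisomerase that untangles sister chromatids, was at 7.82 and 7.07 TPM in WT soft, 8.76 and 5.8 in WT soft+IL-4, 59 in WT stiff 1 and 4.45 in WT stiff 2, 6.26 and 7.38 in KO soft, 4.82 and 4.14 in KO soft+IL-4, and 8.45 and 6.48 in KO stiff. Aurkb, the kinase of the passenger complex, was at 8.34 and 9.57 TPM in WT soft, 7.23 and 7.91 in WT soft+IL-4, 32.1 in WT stiff 1 and 9.1 in WT stiff 2, 5.43 and 10.4 in KO soft, 6.02 and 7.65 in KO soft+IL-4, and 12.8 and 8.57 in KO stiff. Both had a single high library, and Aurkb showed the smallest ratio of the class, 3.85.

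The other mitosis members behaved in the same way, and their values are given because of that pattern. Plk1, a kinase needed from mitotic entry to exit, had the largest ratio, 16.4, with 29.1 TPM in WT stiff 1 against 0.94 to 3.1 elsewhere. Mki67, the antigen used to stain cycling cells, was at 40.8 TPM against 2.74 to 4.49. The cyclins Ccna2, Ccnb1 and Ccnb2 had ratios of 13.3, 9.96 and 10.8, and their partner kinase Cdk1 one of 6.69. Bub1, a checkpoint kinase at the kinetochore, had a ratio of 10.2, Tpx2, a spindle assembly factor, one of 7.93, and Aurka, the spindle pole kinase, one of 7.27. In WT stiff 2, 11 of the 12 mitosis members were below both WT soft libraries and 1 lay between them. The share of all genes below both was not counted, so whether this differs from the table as a whole is not known here.

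The ratios of the replication members in WT stiff 1 varied widely, also among enzymes that make nucleotides. Rrm2, the small subunit of ribonucleotide reductase, had the largest ratio of the class, 8.42, with 47.1 TPM against 3.62 to 8.31 elsewhere, while its partner Rrm1 had a ratio of 3.24. Tyms, which makes thymidylate, had a ratio of 4.3 and Uhrf1, which recruits DNA methylation to new strands, one of 5.32. For the ligase Lig1 the ratio was 4.25, for Prim1, the catalytic primase subunit, 4.06, and for Pola1, the polymerase that extends the primers, 1.97.

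The helicase genes were all higher in WT stiff 1, to different degrees. The ratios of WT stiff 1 to the median of the other 11 libraries were 2.3 for Mcm2, 2.31 for Mcm3, 1.9 for Mcm4, 3.37 for Mcm5, 2.93 for Mcm6 and 3.93 for Mcm7, whose products form the ring. Of the factors that load or start it, Cdc6 had a ratio of 4.17, Cdt1 of 1.89, Cdc45 of 3.57 and Mcm10 of 4.14. The GINS subunits Gins1 and Gins2 had ratios of 2.44 and 2.57, and the clamp loader subunits Rfc3 and Rfc4 of 1.4 and 2.65. All of these were highest in WT stiff 1.

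Pcna, Fen1 and Ccnd1 were not higher in WT stiff 1, and Pcna was lower there. Pcna was at 460 and 359 TPM in WT soft, 575 and 626 in WT soft+IL-4, 287 in WT stiff 1 and 556 in WT stiff 2, 465 and 366 in KO soft, 489 and 499 in KO soft+IL-4, and 507 and 391 in KO stiff. Its lowest library was WT stiff 1, at 0.586 of the median of the others, although it is a replication gene like the rest. Fen1, whose product binds Pcna, was at 22.8 and 21.6 TPM in WT soft, 26.2 and 24.4 in WT soft+IL-4, 22.7 in WT stiff 1 and 26.9 in WT stiff 2, 26.9 and 18.7 in KO soft, 25 and 23.8 in KO soft+IL-4, and 26.6 and 22.6 in KO stiff. Ccnd1, the growth factor-dependent cyclin D1, was at 20.4 and 23.9 TPM in WT soft, 20.2 and 19.8 in WT soft+IL-4, 19.2 in WT stiff 1 and 18.6 in WT stiff 2, 17.6 and 23.7 in KO soft, 19.9 and 20.7 in KO soft+IL-4, and 19.5 and 22.9 in KO stiff. Both kept within the range of the other libraries in WT stiff 1.

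The remaining members with the highest means in their class were Cdt1, E2f1 and Ccne1. Cdt1, the licensing factor, was at 21.6 and 18.8 TPM in WT soft, 18.6 and 16.2 in WT soft+IL-4, 35.6 in WT stiff 1 and 15.9 in WT stiff 2, 25.8 and 19.5 in KO soft, 19.6 and 16.5 in KO soft+IL-4, and 27.5 and 18.2 in KO stiff. E2f1, the transcription factor, was at 21.9 and 23.5 TPM in WT soft, 19.2 and 22.6 in WT soft+IL-4, 33 in WT stiff 1 and 22.2 in WT stiff 2, 24.1 and 23.5 in KO soft, 21.6 and 21.5 in KO soft+IL-4, and 25.1 and 25.2 in KO stiff. Ccne1, cyclin E1, was at 4.68 and 3.13 TPM in WT soft, 4.74 and 4.47 in WT soft+IL-4, 10.7 in WT stiff 1 and 4.2 in WT stiff 2, 2.34 and 2.61 in KO soft, 4.02 and 3.57 in KO soft+IL-4, and 5.34 and 3.27 in KO stiff. WT stiff 1 was the highest library for all 3, by a ratio of 1.89, 1.46 and 2.67, and Ccne2 had the largest ratio among the regulators, 9.19, from a low level.

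Other genes of the cycle, from lists that hold no member, were also high in WT stiff 1. Of 39 further replication genes tested, 34 were highest there with a median ratio of 1.91, and of 39 further mitosis genes 37 were, with a median ratio of 6.84. Of 27 genes that control the cycle (cyclins, kinases, inhibitors, the Rb and E2F families), 16 were highest there and the median ratio was 1.42. Of the 7 inhibitors of cyclin-dependent kinases in that list, 4 were highest there (Cdkn1a, Cdkn1b, Cdkn2c and Cdkn2d) and 3 were within the range of the other libraries (Cdkn1c, Cdkn2a and Cdkn2b). Cdkn1a (p21) was at 286 TPM in WT stiff 1 against 140 to 196 elsewhere, Cdkn2c (p18) at 50.2 against 13.5 to 26, and Cdkn2d (p19) at 48.9 against 14.1 to 27.4. Btg2, an antiproliferative gene, was lower, at 20.8 TPM against 42.2 to 63.2. The genes given with levels here were chosen after their values were seen.

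Sums of the neutrophil and of the progenitor markers were also highest in WT stiff 1. The erythroid, mast cell and basophil, lymphoid and fibroblast sums in WT stiff 1 were within the range of the other 11 libraries. The 6 neutrophil markers in the table summed to 94.9 TPM there against 36.9 to 62.3 in the other 11 libraries. Mmp8 made up most of this, at 71.1 TPM against 27.9 to 41.9. S100a9 and Ltf were also highest there. S100a8, at 12.7 TPM against 6.51 to 19.9, and Ngp, at 0.735 TPM against 0.0947 to 1.29, were within the range of the others, and Retnlg was listed at 0. The 8 progenitor markers summed to 7.76 TPM against 3.16 to 6.13, with Cd34 at 4.22 TPM and Elane, the neutrophil elastase of granulocyte precursors, at 1.57 TPM. Prtn3, at 0.73 TPM against 0 to 0.729, was barely highest there, and Mpo, at 0.792 TPM against 0 to 1.16, was within the range of the others. Others of the list went the other way or were listed at 0: Sox4 was at 0.295 TPM against 0.815 to 2.8, Flt3 at 0.149 TPM against 0.191 to 1.12, and Kit and Ctsg were listed at 0. The 8 macrophage markers summed to 23619 TPM in WT stiff 1, against 23571 to 57980 in the other 11 libraries, and to 24708 in WT stiff 2. Most of the sum was Lyz2, at 19076 TPM in WT stiff 1 and 20502 in WT stiff 2. Of the others, Cd14 differed most between these libraries, at 412 and 151 TPM. The part of these cells in the levels of the members was not tested.

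Replication and mitosis members differed in the letters around their RefSeq start sites. In windows from 250 bases before to 50 bases after the start (RefSeq, GRCm38.p6, 31 of the 39 members matched), letters of the E2F site (TTTCCCGC, TTTCGCGC, TTTGCCGC or TTTGGCGC, either strand) were found in 10 of 25 windows of replication members (40%), in 1 of 9 of mitosis members (11.1%) and in 2.26% of all 32851 windows. Letters of the CHR element, which recruits repressors of mitosis genes outside G2 and M (TTTGAA or TTCGAA, either strand), were found in 20% of the replication windows, in 7 of 9 mitosis windows (77.8%) and in 19.2% of all windows. CCAAT on either strand was found in 64%, 88.9% and 37.4%. A match of letters is a description and no evidence of binding. The window of Pcna held CCAAT and neither of the others.

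The stretches before the start are printed for 2 helicase genes with E2F letters, one of which, Mcm6, is described again below. Both lie before the annotated gene and overlap no gene of GENCODE: chr8:75109309-75109508 (plus strand) for Mcm5 and chr1:128359706-128359905 (minus strand) for Mcm6, 200 bases each, 5′ to 3′, ending at the base before the start. Capitals mark the E2F letters, in which a match on one strand can overlap one on the other.
Mcm5: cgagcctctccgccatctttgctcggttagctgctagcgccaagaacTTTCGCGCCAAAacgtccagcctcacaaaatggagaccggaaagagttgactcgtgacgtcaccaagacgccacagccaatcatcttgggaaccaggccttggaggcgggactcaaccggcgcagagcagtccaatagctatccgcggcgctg
Mcm6: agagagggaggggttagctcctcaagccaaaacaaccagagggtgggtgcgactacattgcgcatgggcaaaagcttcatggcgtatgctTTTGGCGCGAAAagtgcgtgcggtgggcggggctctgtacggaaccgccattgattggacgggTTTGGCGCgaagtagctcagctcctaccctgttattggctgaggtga

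For the mitosis genes, 3 stretches are printed with the CHR letters and CCAAT (or ATTGG, its reverse) in capitals. They lie at chr10:69352939-69353112 for Cdk1, chr7:135716380-135716579 for Mki67 and chr9:70421555-70421754 for Ccnb2, all on the minus strand and outside any GENCODE gene. That of Cdk1 has 174 bases, since the 26 bases next to its RefSeq start lie within the GENCODE gene, and it also holds E2F letters, left in lower case.
Cdk1: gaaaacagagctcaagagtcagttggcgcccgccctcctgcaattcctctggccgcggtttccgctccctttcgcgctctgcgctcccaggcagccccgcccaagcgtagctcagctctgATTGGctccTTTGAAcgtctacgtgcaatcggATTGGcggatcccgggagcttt
Mki67: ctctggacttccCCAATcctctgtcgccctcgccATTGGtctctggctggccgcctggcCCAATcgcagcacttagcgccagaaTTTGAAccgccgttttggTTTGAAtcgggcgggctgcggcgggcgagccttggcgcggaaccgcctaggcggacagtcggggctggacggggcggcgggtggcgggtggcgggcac
Ccnb2: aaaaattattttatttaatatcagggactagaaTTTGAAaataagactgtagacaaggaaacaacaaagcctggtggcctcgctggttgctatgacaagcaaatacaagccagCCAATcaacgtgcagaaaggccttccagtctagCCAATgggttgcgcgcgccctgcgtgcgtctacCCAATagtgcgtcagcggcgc

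Stiff and soft hydrogels were compared in WT cells with limma on log2(TPM + 1). A gene was called at an adjusted p (Benjamini-Hochberg over the 11194 genes) under 0.05 and a change of at least 2-fold. Of the 39 members, 1 was called, which is 2.56% beside 3.97% of all genes. That member was Gins2, a subunit of the GINS complex that activates the helicase, at chr8:120578633-120589304 on the minus strand of GRCm38. Gins2 was at 9.09 and 8.93 TPM in WT soft, 19.3 and 13.4 in WT soft+IL-4, 29.5 in WT stiff 1 and 16.2 in WT stiff 2, 7.64 and 11 in KO soft, 18.8 and 11.5 in KO soft+IL-4, and 14.2 and 11.2 in KO stiff. The stiff and the soft+IL-4 libraries of both genotypes all lay above all 4 soft libraries, though KO stiff 2 (11.2 TPM) only just exceeded KO soft 2 (11 TPM).

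The log2 fold change of Gins2 was 1.19 ± 0.317 (SE, adjusted p = 0.0424 by limma). This call was lost when any of 3 libraries was left out: the adjusted p was 0.168 without WT soft 1, 0.17 without the library labelled WT soft 2 and 0.145 without WT stiff 1. Without WT stiff 1 the log2 fold change was 0.78. The adjusted p was 0.296 without the 3 libraries in which Camkk2 went against the labels.

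No other member passed, although 37 of 39 had a log2 fold change above 0. Without WT stiff 1, 29 of these lay below 0. The median was 0.62 over the replication members, 1.10 over the mitosis members and 0.02 over all genes tested. For Birc5, the log2 fold change was 1.43 ± 1 (SE, adjusted p = 0.442 by limma). Its 2 WT stiff libraries, at 99.5 and 5 TPM, lay on either side of the WT soft libraries, at 8.44 and 7.75 TPM. Both WT stiff libraries lay above both WT soft libraries for 5 members, namely Mcm2, Gins2, Tyms, Prim1 and Uhrf1 (12.8%), as for 20.2% of all genes.

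The result depended on which WT stiff library was used. With WT stiff 1 as the only WT stiff library, 28 of the 39 members were called, 14 for replication, 12 for mitosis and 2 for the G1 to S step, all higher than in WT soft, beside 9.9% of all genes. With WT stiff 2 as the only one, 0 were called, beside 4.26% of all genes. The medians over the mitosis members were 2.74 and -0.58 on the log2 scale in these fits, and those over the replication members 1.20 and -0.12. A lone library is assumed here to vary as the other groups do.

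The stiff WT libraries were also compared with the other WT and KO cultures. Against WT soft+IL-4, 0 of 39 members were called (1 with an unadjusted p under 0.05), beside 0% of all genes. KO stiff against WT stiff gave 0 members called (3 with an unadjusted p under 0.05), beside 1.98% of all genes, and medians of -0.75 for replication and -1.10 for mitosis. The interaction of stiffness with genotype gave 0 members called (1 with an unadjusted p under 0.05, Prim1), beside 0.67% of all genes. With WT stiff 1 as the only WT stiff library these 3 counts were 28, 28 and 25, beside 8.54%, 9.01% and 7.99% of all genes.

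In KO cells, median differences of the members between the stiff and the soft hydrogel were small, and no member was called. Of the 39, 0 were called (0 with an unadjusted p under 0.05), beside 0.0447% of all genes, and the medians were 0.04 for replication and 0.09 for mitosis on the log2 scale. The log2 fold changes ran from -0.45 to 0.58. Errors were wide among the mitosis members, with 0.36 ± 1 (SE) for Birc5, so the lack of calls does not show equal levels. With WT stiff 1 set aside, the library labelled KO stiff 1 was the highest for 14 of the 39 members. The share of all genes for which this held was not counted. Both KO stiff libraries lay above both KO soft libraries for 5 members (12.8%), beside 13.6% of all genes, and for 0 of the 12 mitosis members. Camkk2 went against the labels of 1 library on each side of this comparison.

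With IL-4 in the soft hydrogel, most mitosis members had lower values in both genotypes, none of them called, and the replication members were divided. In WT, 0 of 39 members were called (1 with an unadjusted p under 0.05, Gins2), beside 3.76% of all genes, and in KO 0 were called (0 with an unadjusted p under 0.05), beside 3.65%. The median log2 fold change was -0.34 in WT and -0.51 in KO for the mitosis members, and 0.16 and -0.21 for the replication members, beside -0.05 over all genes in both. The interaction of IL-4 with genotype gave 0 members called (0 with an unadjusted p under 0.05), beside 0% of all genes.

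The mean of both genotypes uses the same 4 soft and 4 soft+IL-4 libraries whichever genotype the soft libraries carry, and was added after the values in each genotype were seen. In it, 0 of 39 members were called (1 with an unadjusted p under 0.05), beside 4.35% of all genes. All 12 mitosis members had a log2 fold change of 0 or below, with a median of -0.43, whereas the median over the replication members was -0.07. All 4 soft+IL-4 libraries had a wider gap between the replication and the mitosis median (0.93 to 1.22) than all 4 soft libraries (0.43 to 0.73), which was not tested.

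**Figure D3:**
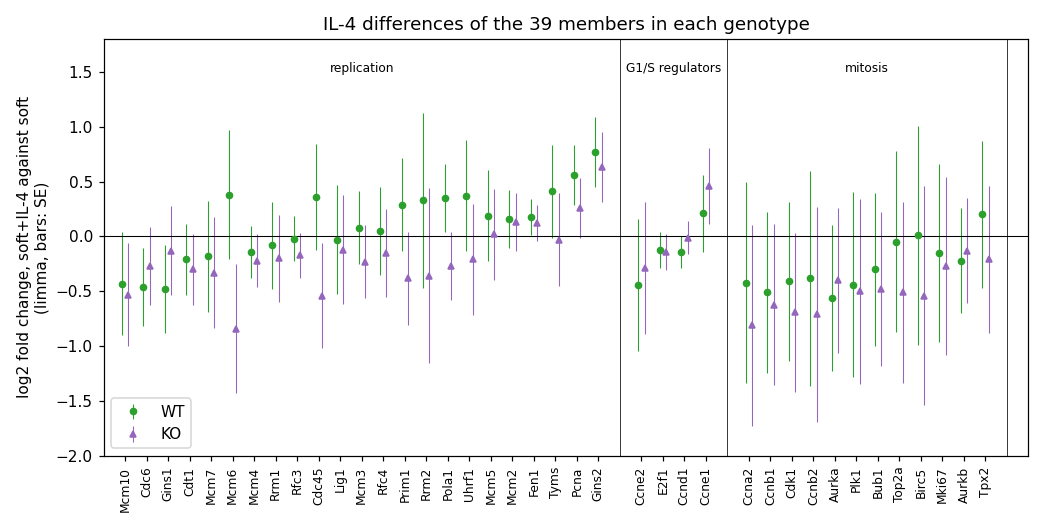
Log2 fold change of soft+IL-4 against soft for each of the 39 members in WT (circles) and KO (triangles), with bars of 1 SE from limma, in order of the mean of both within each class. Most mitosis members lie below 0 in both genotypes, Gins2 and Pcna above, and no member was called in either.

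For 7 members the 4 soft+IL-4 libraries did not overlap the 4 soft ones. Gins2 was at 11.5 to 19.3 TPM with IL-4 and at 7.64 to 11 TPM without, and Pcna at 489 to 626 and 359 to 465 TPM. These 2 of 39 (5.13%) were higher with IL-4, beside 15.7% of all genes. Lower with IL-4 were 5 of 39 (12.8%), beside 21.2% of all genes, so that neither direction was more common among the members than in the table.

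The 5 lower members were 3 that drive mitosis, 1 subunit of the helicase ring (Mcm4) and 1 factor that loads it (Cdc6). Ccna2 (cyclin A2) was at 1.94 to 3.99 TPM with IL-4 and 4.27 to 5.62 without, and Ccnb1 (cyclin B1) at 1.41 to 2.27 and 2.78 to 4.41 TPM. Cdk1, their kinase, was at 2.87 to 4.3 and 4.76 to 6.59 TPM. Mcm4 was at 8.05 to 9.23 and 9.3 to 10.3 TPM, a small shift, and Cdc6 at 0.271 to 0.566 and 0.572 to 1.14 TPM, near the floor of the table. The library labelled WT soft 2 and the library labelled KO soft 1 are among the 4 without IL-4.

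**Figure D4:**
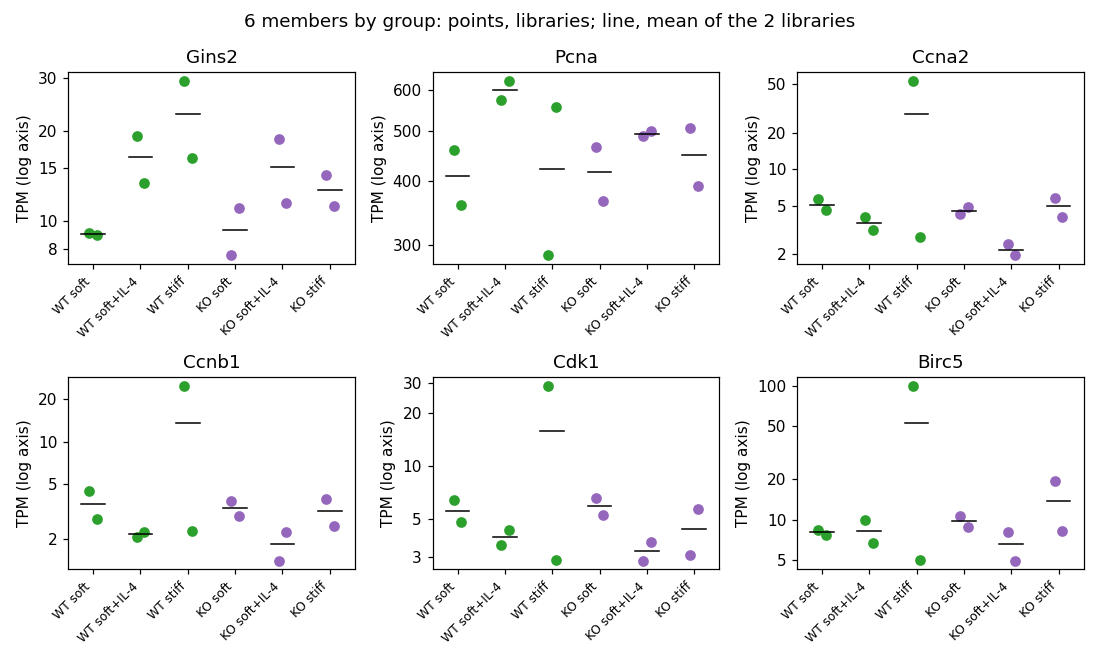
TPM (log axis) of Gins2, Pcna, Ccna2, Ccnb1, Cdk1 and Birc5 in the 6 groups, WT in green and KO in purple. Points are libraries and lines the mean of 2. The 2 WT stiff points are far apart, with WT stiff 1 high in all but Pcna, and the soft+IL-4 points of Gins2 and Pcna lie above the soft points.

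The test of these differences depended on the WT stiff libraries, because their spread entered the error of every comparison. For the mean of both genotypes, the log2 fold change of Ccna2 was -0.61 with an SE of 0.646 (adjusted p = 0.547 by limma) when all 12 libraries were fitted. Without both WT stiff libraries, which was tried after the data were seen, its adjusted p was 0.00824. In that fit 5 of 39 members (12.8%) had an adjusted p under 0.05 at less than 2-fold, beside 34.8% of all genes at any fold.

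The other 4 of these 5 members were Gins2, Pcna, Ccnb1 and Cdk1. Without both WT stiff libraries, Gins2 was higher with IL-4 by 0.70 (adjusted p = 0.0151 by limma) and Pcna by 0.41 (adjusted p = 0.0186) on the log2 scale. Ccnb1 fell by 0.56 (adjusted p = 0.0371) and Cdk1 fell by 0.55 (adjusted p = 0.0382). With all 12 libraries, the adjusted p of these 4 was 0.051, 0.165, 0.482 and 0.486.

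Among the control genes, Myc, a growth-promoting transcription factor, was called with IL-4 in both genotypes. It was at 7.63 and 6.12 TPM in WT soft, 19.2 and 18.8 in WT soft+IL-4, 12.7 in WT stiff 1 and 18.3 in WT stiff 2, 8.92 and 5.96 in KO soft, 20.9 and 18.4 in KO soft+IL-4, and 8.67 and 8.43 in KO stiff. Its log2 fold change with IL-4 was 1.35 ± 0.207 in WT (SE, adjusted p = 0.00368 by limma) and 1.31 ± 0.207 in KO (adjusted p = 0.00407). It was the only one of the 27 control genes called in these 2 comparisons. In the mean of both genotypes Cdkn1c, an inhibitor of cyclin-dependent kinases, was called too and fell by 1.03 ± 0.27 (log2 scale, SE, adjusted p = 0.0225 by limma). The call of Myc was lost in WT without the 3 libraries in which Camkk2 went against the labels (adjusted p = 0.0964) and in KO without KO soft+IL-4 1 (adjusted p = 0.0503). That of Cdkn1c was lost without any of WT soft 1, WT soft+IL-4 1, the library labelled KO soft 1, KO soft+IL-4 1 or KO soft+IL-4 2 (adjusted p of 0.0824, 0.0868, 0.0741, 0.0535 and 0.0769). By its fold it was also lost without the 3 libraries in which Camkk2 went against the labels (log2 fold change -0.97) and with median-of-ratios scaling (-0.99).

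In WT stiff against WT soft, 1 gene of each of these 3 lists was called. Dut, which clears dUTP from the nucleotide pool, rose by 1.41 ± 0.361 (log2 scale, SE, adjusted p = 0.0373 by limma), and Cks1b, a small partner of cyclin-dependent kinases, by 1.17 ± 0.312 (adjusted p = 0.0436). Myc rose by 1.05 ± 0.207 (adjusted p = 0.012). Dut was at 22 TPM in WT stiff 1 and 7.51 in WT stiff 2, above 4.52 and 4.02 in WT soft, and Cks1b at 67.6 and 32.5 TPM, above 18.1 and 22.9. The calls of Dut and Cks1b were lost without WT soft 1 (adjusted p of 0.136 and 0.232) or the library labelled WT soft 2 (0.17 and 0.113), and without WT stiff 1 their log2 fold changes were 0.69 and 0.65. All 3 calls were lost without the 3 libraries in which Camkk2 went against the labels (adjusted p of 0.33 for Dut, 0.203 for Cks1b and 0.161 for Myc). That of Myc was also lost without the library labelled WT soft 2 (adjusted p = 0.0949) and, by its fold, without WT stiff 2 (log2 fold change 0.80). Of the further replication and mitosis genes, 0 were called with IL-4 in WT (3 and 0 with an unadjusted p under 0.05) and 0 in KO (3 and 0).

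Genotypes were compared in each culture. KO soft against WT soft gave 0 of 39 members called (0 with an unadjusted p under 0.05), beside 0% of all genes, with a median log2 fold change of 0.02 for replication and -0.09 for mitosis. KO soft+IL-4 against WT soft+IL-4, in which no label was contradicted by Camkk2, gave 0 called (1 with an unadjusted p under 0.05), beside 0% of all genes, and medians of -0.20 and -0.27.

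The member behind that unadjusted p was Mcm6, a subunit of the helicase ring at chr1:128331590-128359664 on the minus strand of GRCm38, named here after its values were seen. Mcm6 was at 22 and 10.2 TPM in WT soft, 20.6 and 19.2 in WT soft+IL-4, 41.6 in WT stiff 1 and 14.2 in WT stiff 2, 21 and 8.84 in KO soft, 8.47 and 6.14 in KO soft+IL-4, and 21.2 and 8.55 in KO stiff. The 2 libraries of a group differed by over 2-fold in 4 of the 6 groups. The log2 fold change of KO against WT with IL-4 was -1.35, with an adjusted p of 1 by limma over all 12 libraries and of 0.0281 when only these 4 libraries were fitted.

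The levels of Mcm6 ran with those of Camkk2 rather than with the labels. The 5 lowest values of Mcm6, 6.14 to 10.2 TPM, came from the same libraries as the 5 lowest of Camkk2, 8.54 to 11.7 TPM, which include the library labelled WT soft 2. In the other 7 libraries Mcm6 was at 14.2 to 41.6 TPM and Camkk2 at 23.3 to 46.6 TPM, and these include the libraries labelled KO soft 1 and KO stiff 1. Camkk2 lies on another chromosome, at chr5:122731170-122779409. The relation was noticed in these 12 values and has no test.

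**Figure D5:**
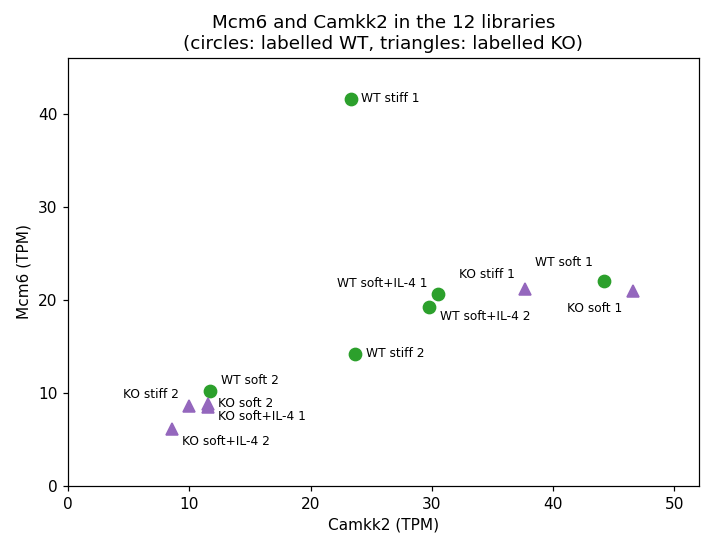
TPM of Mcm6 against TPM of Camkk2 in the 12 libraries, circles for libraries labelled WT and triangles for those labelled KO. The 5 libraries at 8.54 to 11.7 TPM of Camkk2 hold the 5 lowest Mcm6 values, and WT stiff 1 lies apart at 41.6 TPM of Mcm6.

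The other members of the ring followed that order in part or not at all. In WT soft+IL-4 and KO soft+IL-4, Mcm2 was at 6.68 and 7.02 against 6.23 and 5.47 TPM, Mcm3 at 18.1 and 17.1 against 14.8 and 13.3 TPM, Mcm5 at 10.4 and 8.55 against 7.37 and 7.09 TPM, and Mcm7 at 13.7 and 11.3 against 13.9 and 10.4 TPM. Mcm2, Mcm3 and Mcm5 were lower in both KO libraries, while Mcm7 overlapped, and 0 of these differences were called. The share of all genes lower in both KO libraries was not counted, so whether these members differ from the table as a whole is not known. Mcm4 was at 8.05 and 8.91 against 8.06 and 9.23 TPM. Over the 12 libraries Mcm3 split in the order of Camkk2 with WT stiff 2 (14.5 TPM) as the exception. It was at 13.3 to 16.3 TPM in the 5 libraries lowest in Camkk2 and at 16.7 to 37.8 TPM in the other 6. These ranges nearly met, the split has no test, and the share of all genes that split so was not counted.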

How the data were processed

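The authors deposited 1 table of TPM values for 14098 genes and 12 libraries (poly-A RNA, strand-specific libraries). Per the labels, Trim Galore 0.6.7, Salmon 1.4.0 and mm10 were used, whereas the study's methods name STAR, featureCounts and DESeq, so how reads became TPM is not settled. TPM keeps no depth, and no counting error can be given. All columns were assigned by the labels.

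The 11194 genes with 1 TPM or more in 2 or more libraries were fitted on log2(TPM + 1), which understates changes of low genes, in 1 model with a mean for each of the 6 groups (limma 3.58.1, R 4.3.3, eBayes with trend). P-values were adjusted by Benjamini-Hochberg over all genes of a comparison. On simulated data for WT stiff against WT soft (11194 genes), 82.4% of genes changed by 1.5 on the log2 scale were called. For genes changed by 2 and by 3 the shares were 87% and 92.1%. The changed genes were drawn from the whole table, and each gene was given the same spread in every group. The shares therefore do not describe members whose WT stiff libraries lay far apart. Alternatives were a pseudocount of 0.1, no filter, median-of-ratios scaling, the compared libraries alone, a replicate block, no fold threshold, leaving out the 3 libraries whose Camkk2 goes against their labels, and leaving out each library in turn.

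The members and gene lists were chosen with earlier results of these data known. Values in every library are given for called members and the 3 with the highest mean TPM in each class, and other genes with such values are said to be chosen later or given for a pattern. Of other lists, up to 3 called genes per list and comparison are named. Sequences come from RefSeq (GRCm38.p6) and positions from GENCODE M21 (GRCm38). Of the members, Aurkb, Ccna2, Ccne2, Gins1, Gins2, Ccnd1, Tpx2 and Mcm4 were not matched to a promoter.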

Additional observations from a re-analysis of the deposited data

How the results depend on the processing

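The count of members called in WT stiff against WT soft, 1 with all libraries, was 0 without a filter on low values, 0 with only the compared libraries and 0 without the 3 libraries whose Camkk2 goes against their labels, and it ran from 0 to 28 when each library was left out in turn. Leaving out a library moved 3 other counts from 0: WT stiff against WT soft+IL-4 and KO stiff against WT stiff ran from 0 to 28, and the interaction of stiffness with genotype from 0 to 25, the upper end always without WT stiff 2, where 8.54%, 9.01% and 7.99% of all genes were called. In WT stiff against WT soft, 2.86% of all genes were called without a filter and 0% with only the compared libraries. With only the compared libraries, KO soft+IL-4 against WT soft+IL-4 gave 1 (Mcm6), beside 0.17% of all genes. The other counts stayed at 0 under every alternative. In WT stiff against WT soft, the log2 fold change of 30 of the 39 members turned its direction without WT stiff 1. Of the members with values in every library, those that turned with a library left out were Pcna (-0.50 to 0.45), Cdt1 (-0.33 to 0.79), E2f1 (-0.03 to 0.52), Birc5 (-0.60 to 3.47), Top2a (-0.63 to 2.83) and Mcm6. The value of Mcm6 was 0.67 with all libraries and -0.08 without WT stiff 1. The direction of Gins2 held in all 10 alternatives, with a log2 fold change of 0.78 to 1.61 and an adjusted p of 0.00477 to 0.296. Same-numbered libraries deviated together in 3 of 15 pairs of groups (r from -0.0526 to 0.314 over genes), so the numbers were not taken as pairs. With a replicate block, 1 member was called in WT stiff against WT soft (Gins2, adjusted p = 0.0307), the call of Cks1b was lost (adjusted p = 0.0512), and Gins2 had an adjusted p of 0.0362 for IL-4 in the mean of both genotypes. The calls of Dut and Cks1b were also lost without a filter (adjusted p of 0.0616 and 0.069) and with only the compared libraries (0.366 and 0.33), as was that of Myc in the latter (0.227). Scaling moved no library by over 0.0939 on the log2 scale. With 2 libraries a group, and WT stiff 1 and WT stiff 2 far apart, differences within their spread were not detectable.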

Other observations

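The genes next to Mcm6 on chromosome 1 differed less between libraries than Mcm6 did. Ubxn4, which lies between 128243964 and 128279378, was at 28.3 to 30.6 TPM in all 12 libraries, and Rab3gap1 was at 15.9 to 18.6 TPM. R3hdm1 was at 13.1 to 18 TPM. Zranb3 was lowest in WT stiff 1, at 5.93 TPM against 10.3 to 13.1 TPM elsewhere. Dars, an aspartyl-tRNA synthetase on the other side of Mcm6, was at 32 to 56.4 TPM and highest in WT stiff 1. Cxcr4, a chemokine receptor further on, was at 388, 408 and 339 TPM in the library labelled WT soft 2, in KO soft 2 and in KO stiff 2, and at 121 to 213 TPM in the other 9 libraries. These genes were looked up after the values of Mcm6 were seen, and their differences were not tested.

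A mitosis gene that is no member was not higher in WT stiff 1 either. Pttg1 (securin, which holds back the separation of sister chromatids) was at 35.7 TPM there against 34.7 to 69.8 TPM elsewhere, while Ube2c, which marks securin and cyclin B for destruction, was at 105 TPM against 6.06 to 14.7 TPM, and Kif11, a spindle motor, at 20.6 against 0.581 to 2.5 TPM. The 3 genes were chosen after their values were seen.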
